A study of Mus musculus with 9 samples.

Results

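Perilipins are the proteins that coat lipid droplets, the organelles in which cells store triglyceride, and the genes reported here are the 5 mouse perilipins, Plin1 to Plin5, with the lipases and co-activator that work at the droplet surface, Pnpla2, Abhd5 and Lipe. These 8 genes were picked by symbol from the 27179 genes of the count table, and all 8 were found. Plin4 was chosen by its higher level in these same libraries, so its values are given as a description with no test. The other 7 were added by family or role, with the results of this comparison known, so their tests describe these libraries and are not independent evidence.

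The libraries were made from poly(A) RNA of whole pulverized mandibles, teeth included, of male C57BL/6 mice at 6 months of age. The groups are WT mice (n = 5) and mice labelled FcγRIIB-/- (n = 4), in which the inhibitory Fc receptor is deleted and which are used as a model of lupus. The labels name no treatment, and each library is 1 mouse. Total counts lay between 21453880 and 28991631 per library. The targeted gene, Fcgr2b, did not fall with the label (17.04 to 38.3 CPM, counts scaled to library size, in WT and 26.0 to 32.1 CPM in the others), so every direction given here rests on the labels. In whole tissue, fewer cells of a type and less RNA per cell cannot be told apart.

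In a fat cell, PLIN1 covers the large droplet and holds ABHD5, the co-activator of the triglyceride lipase ATGL, which Pnpla2 encodes. On hormonal stimulation through protein kinase A, PLIN1 is phosphorylated and releases ABHD5, ATGL cleaves the first fatty acid from triglyceride, and hormone-sensitive lipase (Lipe) cleaves the next. PLIN2 and PLIN3 are found in most cell types, PLIN5 in oxidative tissues such as heart and muscle, where it links droplets to mitochondria, and PLIN4 in fat, heart and skeletal muscle. Several of these genes are known targets of the nuclear receptors PPARα, PPARδ and PPARγ.

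Plin4, Plin5 and Plin3 lie within 1 stretch of chromosome 17 on the minus strand (RefSeq, GRCm38, which is mm10). Plin4 (gene identifier 57435) spans chr17:56100587-56109948 and Plin5 (66968) chr17:56111597-56117606, with no other member between them, and Plin3 (66905) spans chr17:56278962-56290511. Plin2 (11520) is at chr4:86626910-86670217 and Plin1 (103968) at chr7:79721164-79732904. The lipase genes are Pnpla2 (66853) at chr7:141455188-141460743, Lipe (16890) at chr7:25379527-25398486 and Abhd5 (67469) at chr9:122351616-122381524.

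What sets the Plin4 transcript apart in sequence is a coding repeat. Compared with itself at a shift of 99 bases, its coding sequence had the same base at 58.4% of positions, against a median of 27.8% over all shifts examined. The best shift of the other perilipins gave between 30.6% and 34.0%. The repeat ran over coding positions 371 to 3001, which is 26.6 units and 62.5% of the 4209 coding bases. The 3 units printed below lie in exon 5 of 9. The following 3 consecutive units, from coding positions 1222 to 1518 (chr17:56106106-56106402, minus strand, GRCm38), are shown because reads on them can match the gene at more than 1 place. Capitals mark the 87 of 99 positions that are the same in all 3 units.
Plin4 unit 1: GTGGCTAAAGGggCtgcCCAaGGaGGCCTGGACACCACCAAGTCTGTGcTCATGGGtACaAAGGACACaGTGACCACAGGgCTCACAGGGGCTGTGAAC
Plin4 unit 2: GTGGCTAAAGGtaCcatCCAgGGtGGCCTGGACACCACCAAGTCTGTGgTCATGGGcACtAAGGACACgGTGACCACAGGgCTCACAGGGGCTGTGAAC
Plin4 unit 3: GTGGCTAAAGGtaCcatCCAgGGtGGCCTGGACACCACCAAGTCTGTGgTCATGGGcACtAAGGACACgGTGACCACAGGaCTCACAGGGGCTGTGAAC

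**Figure D1:**
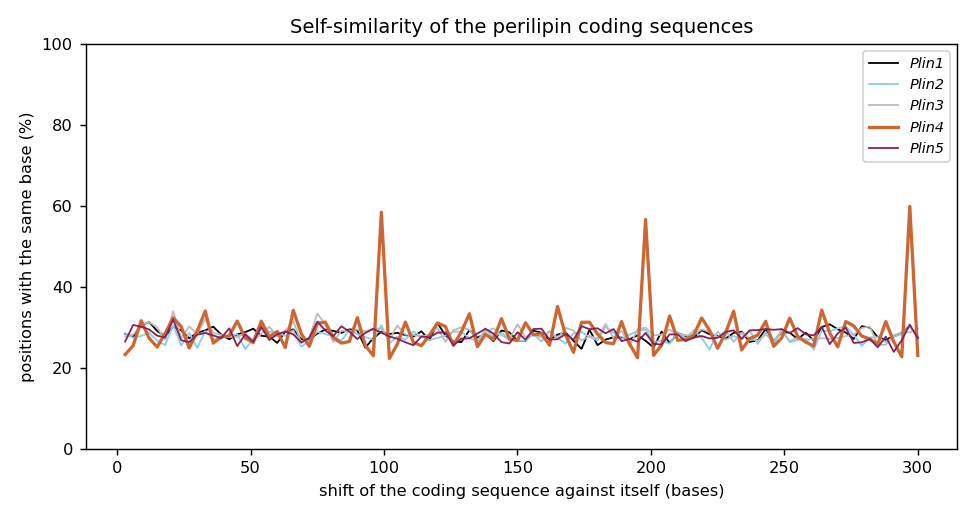
Percentage of positions with the same base (vertical axis) when each perilipin coding sequence is laid over itself at a given shift in bases (horizontal axis), 1 line per gene. Plin4 peaks at 58.4% at a shift of 99 bases and again at its multiples, with 59.9% at 297 bases, while the other 4 lines do not pass 34.0%.

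Since the reads were single and 75 bases long, every window of 75 bases in the annotated transcripts was searched for copies. In Plin4, 693 of 5682 windows (12.2%) occurred more than once within the transcript and 0 occurred in transcripts of other genes. Plin1, Plin5 and Pnpla2 had 0 shared windows of either kind. In Abhd5, 28.4% of windows were also found in transcripts of other genes, and the shares were 2.01% in Lipe, 1.599% in Plin2 and 0.476% in Plin3. How reads with several matches were counted is not given in the sources used here, so the Plin4 level is uncertain to that extent. Abhd5 overlaps an antisense gene, A730085K08Rik, by 950 bases on the opposite strand, and the search covered both strands. Its shared windows can therefore be the same place read on the other strand, so its level is uncertain by the strand setting of the counting. The span of the Lipe gene, introns included, lies wholly inside that of a long noncoding RNA gene on the opposite strand, 4732471J01Rik. The strand setting of the counting is not given in the sources used here. Of the Lipe windows searched, 2.01% occurred in transcripts of other genes on either strand, so reads there cannot be told apart by sequence. In RefSeq, the span of Plin2 is overlapped over 5312 bases by a transcribed pseudogene, Gm12551. The annotation used for counting is not given in the sources used here, so the Plin2 level is uncertain to that extent.

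The sequences directly upstream of the transcription start of the 3 neighbours on chromosome 17 are printed because Plin4 and Plin5 were both higher in the libraries labelled FcγRIIB-/- and Plin3 was not. Each holds the 250 bases before a RefSeq start (GRCm38.p6, minus strand), at chr17:56109783-56110032 for Plin4, chr17:56117549-56117798 for Plin5 and chr17:56290512-56290761 for Plin3. The starts used for Plin4 and Plin5 lie inside the outer limits of the gene spans given above, so part of each of these windows is within the gene. Plin5 has a second RefSeq start directly downstream, whose window is not printed. Capitals mark CCAAT and AGGTCA on either strand.
Plin4 promoter: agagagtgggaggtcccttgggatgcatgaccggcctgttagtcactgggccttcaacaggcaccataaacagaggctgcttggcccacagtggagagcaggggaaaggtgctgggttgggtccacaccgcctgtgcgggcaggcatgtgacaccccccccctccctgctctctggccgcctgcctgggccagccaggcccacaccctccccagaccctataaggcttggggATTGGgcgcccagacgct
Plin5 promoter: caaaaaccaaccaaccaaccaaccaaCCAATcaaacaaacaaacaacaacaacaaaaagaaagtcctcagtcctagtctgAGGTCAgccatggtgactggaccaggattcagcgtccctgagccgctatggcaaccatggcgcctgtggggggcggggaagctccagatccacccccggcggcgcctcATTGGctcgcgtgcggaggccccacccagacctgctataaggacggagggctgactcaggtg
Plin3 promoter: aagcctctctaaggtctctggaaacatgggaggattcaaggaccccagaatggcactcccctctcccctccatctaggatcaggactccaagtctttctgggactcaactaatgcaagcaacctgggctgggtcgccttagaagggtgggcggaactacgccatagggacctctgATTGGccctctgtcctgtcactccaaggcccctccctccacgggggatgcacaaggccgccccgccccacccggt

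CCAAT occurred in all 3 of these windows and in that of Plin2, against 33.9% of 32851 mouse promoter windows of this length, and was not in the window of the second Plin5 start. AGGTCA, 1 copy of the core that nuclear receptors such as the PPARs bind, occurred in the printed window of Plin5 and in those of Plin2 and Abhd5, against 14.0% of all windows, and was not in the Plin4 window or that of the second Plin5 start. The spaced double form of this core was in none of the members' windows and in 0.033% of all. The exact TATA box letters TATAAA were in no member's window, against 12.4% of all, and CAGCTG was in that of Plin2, against 13.0% of all. Other forms of the TATA box were not searched, so their absence is not shown. The printed Plin4 and Plin5 windows each hold, close to the start, a form that differs from TATAAA only in its last letter. The printed Plin3 window does not hold that form, and its share among all windows was not counted. These matches describe letters within short windows and not binding.

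Plin4, described first, was higher in every library labelled FcγRIIB-/- than in any WT library. Its level in WT replicates 1 to 5 was 24.4, 11.1, 22.7, 25.3 and 20.96 CPM. In replicates 1 to 4 labelled FcγRIIB-/- it was 52.6, 59.2, 47.9 and 40.6 CPM. WT replicate 2 was lowest of all, and replicate 4 was lowest among those labelled FcγRIIB-/-. The means were 20.9 ± 5.74 CPM (SD, n = 5) and 50.1 ± 7.82 CPM (SD, n = 4), a ratio of 2.40 and a log2 fold change of 1.26 with a standard error (SE) of 0.21. These values rest on 276 to 690 counts per library in WT and 801 to 1502 in the others.

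**Figure D2:**
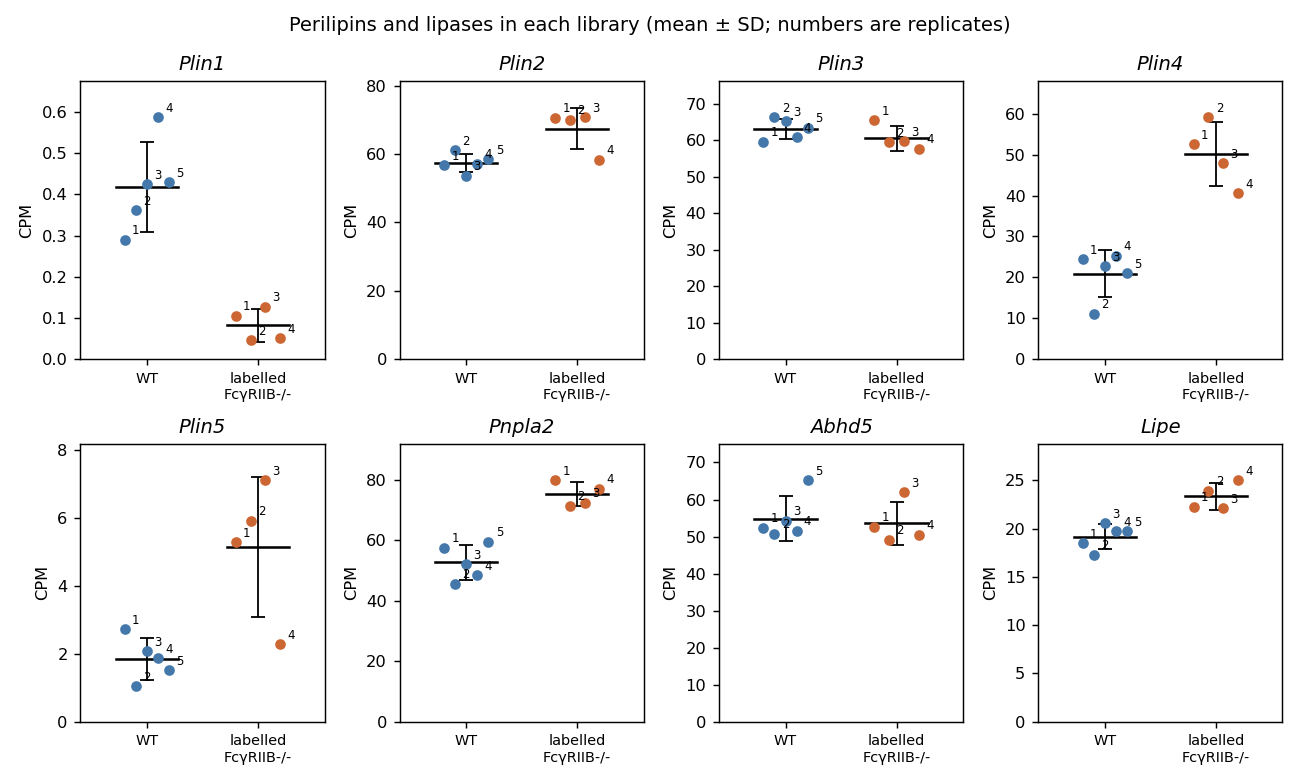
Level in CPM (vertical axes, linear, from 0) of the 8 members in the 5 WT libraries and the 4 libraries labelled FcγRIIB-/-, 1 panel per gene, with points numbered by replicate, the mean as a line and the SD as a bar. In the Plin4, Pnpla2 and Lipe panels the libraries labelled FcγRIIB-/- all sit above WT, in the Plin1 panel they all sit below, and in the Plin2 and Plin5 panels replicate 4 falls back into the WT range.

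Plin5, the neighbour of Plin4, rose 2.79-fold from a far lower level. WT replicates 1 to 5 had 2.72, 1.04, 2.08, 1.87 and 1.52 CPM. The replicates labelled FcγRIIB-/- had 5.29, 5.92, 7.12 and 2.28 CPM. Of these, replicates 1 to 3 lay above every WT library and replicate 4 lay below WT replicate 1. The log2 fold change was 1.48 (SE 0.33, adjusted p = 0.00775 from the quasi-likelihood test in edgeR, adjusted over all 16329 genes tested), and the group means were 1.85 ± 0.625 and 5.15 ± 2.06 CPM (SD). The counts behind it were low, between 26 and 168 per library.

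Plin2, the perilipin of most non-fat cells, was 1.18-fold higher. It had 56.7, 61.2, 53.7, 57.1 and 58.4 CPM in WT and 70.6, 70.1, 70.8 and 58.3 CPM in the libraries labelled FcγRIIB-/-. Here too replicate 4 labelled FcγRIIB-/- lay within the WT range and the other 3 lay above it. The log2 fold change of 0.23 (SE 0.07) passed the test with an adjusted p of 0.0291 in edgeR, and it no longer passed without WT replicate 1, 3 or 4 or without replicate 1, 2 or 3 labelled FcγRIIB-/- (adjusted p up to 0.0772), nor when libraries were scaled by their totals only (adjusted p = 0.180).

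Plin3, a perilipin that moves from the cytosol onto new droplets, had overlapping groups. WT libraries held 59.6, 66.3, 65.2, 60.9 and 63.4 CPM and those labelled FcγRIIB-/- 65.5, 59.4, 59.8 and 57.6 CPM. Its log2 fold change was -0.06, with a 95% interval from -0.19 to 0.074 (adjusted p = 0.486, edgeR).

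Plin1, the perilipin of fat cells, went the other way at a level close to the detection limit. Its counts were 8, 9, 11, 16 and 11 in WT and 3, 1, 3 and 1 in the libraries labelled FcγRIIB-/-. Every library labelled FcγRIIB-/- lay below every WT library, with means of 0.0823 ± 0.0401 CPM (SD, n = 4) against 0.418 ± 0.110 CPM (SD, n = 5). Summed over each group, 55 counts against 8 gave a level 4.90-fold lower, with an interval of 2.32 to 11.9 at 95% confidence that covers counting error only. Plin1 did not pass edgeR's filter on low counts in the comparison of all 9 libraries. With no filter its log2 fold change was -2.25 (adjusted p = 0.00412, edgeR), and DESeq2 gave -2.29 (adjusted p = 0.00488).

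Per kilobase of a gene's annotated exons merged over its transcripts, Plin3 (16.7 ± 0.745 CPM per kb) and Plin2 (16.4 ± 0.774 CPM per kb) were level in WT within their SDs. The merged length is 3786 bases for Plin3 and 3512 for Plin2, while the single transcripts searched for windows have 3645 and 1888 bases. Comparisons between genes, and the sum and shares below, therefore depend on the length chosen. Plin4 followed at 3.62 ± 0.994, Plin5 at 0.885 ± 0.300 and Plin1 at 0.0900 ± 0.0237 CPM per kb. In the libraries labelled FcγRIIB-/- the order was Plin2 at 19.2 ± 1.73, Plin3 at 16.0 ± 0.895, Plin4 at 8.67 ± 1.35, Plin5 at 2.47 ± 0.986 and Plin1 at 0.0177 ± 0.00863 CPM per kb. By this length Plin2 and Plin3 thus remained the most abundant perilipins in both groups.

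By the same merged exon length, the sum of the 5 perilipins was almost the same in every WT library, between 37.4 and 37.8 CPM per kb. It lay between 40.0 and 49.1 CPM per kb in the libraries labelled FcγRIIB-/-. The share of Plin4 in this sum was 9.62% ± 2.63 in WT and 18.6% ± 1.66 in the libraries labelled FcγRIIB-/-, and that of Plin3 was 44.3% ± 2.06 and 34.7% ± 2.61. Plin5 made up 2.36% ± 0.801 and 5.22% ± 1.85, and the share of Plin2 was 43.5% ± 2.09 and 41.4% ± 0.614. The groups overlapped in the shares of Plin5 and Plin2 and not in those of Plin4 and Plin3.

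**Figure D3:**
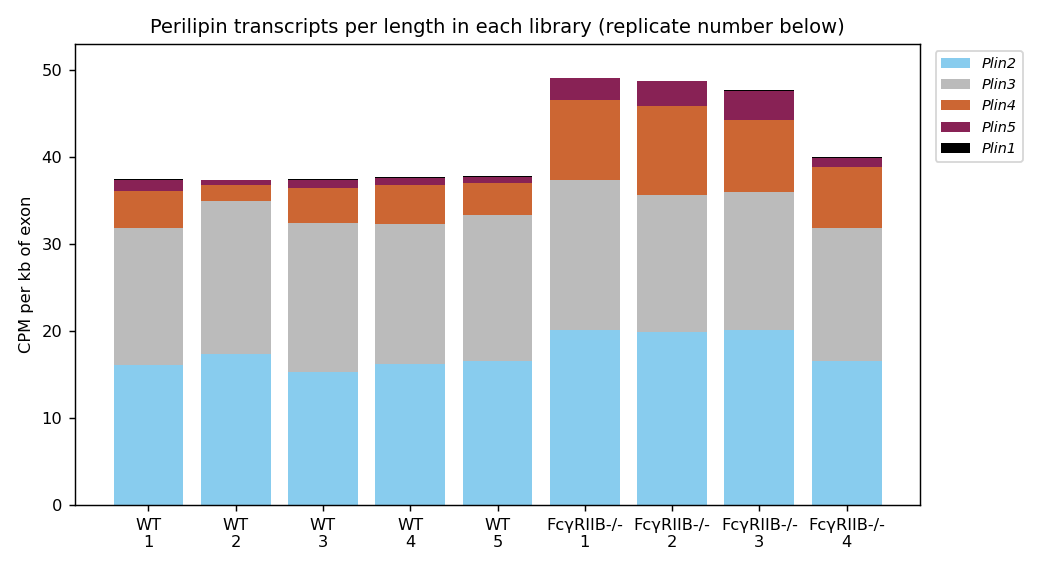
Stacked level of the 5 perilipin transcripts in CPM per kb of exon (vertical axis, from 0) in each library, WT replicates on the left and the replicates labelled FcγRIIB-/- on the right. The sum is between 37.4 and 37.8 in WT and between 40.0 and 49.1 in the others, with the Plin4 layer wider in all 4 libraries labelled FcγRIIB-/- and the Plin1 layer too thin to see.

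Plin4 also stood higher relative to its paralogs within each library, except Plin5. The ratio of Plin4 to Plin2 in CPM was 0.181 to 0.443 in WT and 0.677 to 0.844 in the libraries labelled FcγRIIB-/-. Against Plin3 it was 0.167 to 0.416 and 0.705 to 0.995. Neither pair of ranges overlapped. Against Plin5 the ratio was 9.0 to 13.8 in WT and 6.73 to 17.8 in the others, with means of 11.6 ± 2.04 and 11.1 ± 4.71, so the neighbours kept a similar proportion on average with a wider spread. These ratios contain the level of Plin4 that chose it and are a description.

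Among the lipases, Pnpla2, which encodes the enzyme of the first step of triglyceride breakdown, separated the groups most. It had 57.6, 45.6, 52.1, 48.4 and 59.5 CPM in WT and 79.9, 71.4, 72.4 and 77.0 CPM in the libraries labelled FcγRIIB-/-. All 4 of the latter were above all 5 WT libraries. The log2 fold change was 0.51 (SE 0.08, adjusted p = 0.00181, edgeR), from 52.6 ± 5.88 to 75.2 ± 3.99 CPM (SD).

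Abhd5, whose product activates that enzyme, had overlapping groups. WT libraries had 52.4, 50.8, 54.3, 51.5 and 65.3 CPM and those labelled FcγRIIB-/- 52.6, 49.1, 61.9 and 50.5 CPM. The log2 fold change was -0.04, with a 95% interval from -0.243 to 0.173 (adjusted p = 0.800, edgeR). Its sign changed without WT replicate 5 (0.06), the highest library. The ratio of Pnpla2 to Abhd5 was 0.898 to 1.10 in WT and 1.17 to 1.53 in the libraries labelled FcγRIIB-/-.

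Lipe, hormone-sensitive lipase, was 1.22-fold higher. It had 18.5, 17.3, 20.6, 19.7 and 19.8 CPM in WT and 22.3, 23.9, 22.1 and 25.0 CPM in the libraries labelled FcγRIIB-/-, and the groups did not overlap. The log2 fold change was 0.28 (SE 0.08, adjusted p = 0.0167, edgeR). With scaling by library totals only, the adjusted p was 0.0582. Plin4 relative to the lipase group was 0.243 to 0.524 of Pnpla2 in WT and 0.527 to 0.8285 in the others, 0.218 to 0.491 and 0.774 to 1.20 of Abhd5, and 0.640 to 1.32 and 1.62 to 2.47 of Lipe.

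Of the 7 members other than Plin4, 6 passed the filter on low counts. Of these, 4 were higher (Plin2, Plin5, Pnpla2 and Lipe), where 14% of all 16329 genes tested were higher, and 0 were lower, where 19.3% of all genes tested were lower by the same call. At an unadjusted p under 0.05 in edgeR, 0 of the 6 were lower, as were 3933 of all 16329 genes tested. Plin1, the member that was filtered, was called lower in DESeq2, which called 3312 of 18477 genes lower. Scaled by library totals only, 2 were higher, where 1309 of all 16329 genes tested were higher. Pnpla2 and Lipe lay above WT in every library labelled FcγRIIB-/-, as did 12.1% of all genes tested, and Plin1 lay below in every library, as did 17.5% of all genes tested. The median log2 fold change of the 6 was 0.26, against 0.005 over all genes. Since these genes were chosen with the results of this contrast known, nothing is read from these shares.

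The genes that feed fatty acids to the droplet were next examined as a list. This list and those below were chosen with earlier results of these data known. Their counts are descriptions and not independent evidence. Of 6 genes of fatty acid supply, 5 rose and 0 fell, where 14% of all genes tested were higher and 19.3% lower, with a median log2 fold change of 0.62 against 0.005 over all genes. WT replicate 2, the lowest library for the summed skeletal muscle markers described further on, was also the lowest library for each of these 5. Gpihbp1, which carries lipoprotein lipase to the capillary wall, rose by 1.04 on the log2 scale (SE 0.14, adjusted p = 7.68e-04, edgeR), from 6.49 to 13.3 CPM. Lpl, lipoprotein lipase itself, rose by 0.66 (SE 0.12) from 228.0 to 360.4 CPM, and Fabp3, the fatty acid binding protein of heart and muscle, by 1.04 (SE 0.19) from 30.1 to 61.6 CPM. The groups of these 3 genes did not overlap. Cd36, a fatty acid transporter, had a log2 fold change of 0.58 (SE 0.19, adjusted p = 0.0395, edgeR) that did not pass without WT replicate 2 or 3 or without replicate 1, 2 or 3 labelled FcγRIIB-/- (adjusted p up to 0.112), nor when scaled by library totals only (adjusted p = 0.0698).

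Genes that build triglyceride and droplets moved in both directions. Of 14, 3 were higher, 3 were lower and 8 did not pass, with a median of -0.16. These shares are near the 14% higher and 19.3% lower of all genes tested, so nothing is read from the count of this list. Gpam, the acyltransferase that starts glycerolipid synthesis, fell by 1.14 on the log2 scale (SE 0.19, adjusted p = 0.00201, edgeR), from 28.7 to 13.0 CPM with no overlap. Lpin1, a phosphatidate phosphatase of muscle and fat, rose by 0.64 (SE 0.10, adjusted p = 0.00139, edgeR), from 61.7 to 96.1 CPM, also with no overlap. Aup1, a droplet protein linked to ubiquitin ligases, had a log2 fold change of 0.27 (adjusted p = 0.00750, edgeR).

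The remaining calls of this list were lost when single libraries were left out. Fitm1, which partitions triglyceride into droplets in muscle, had a log2 fold change of 0.86 (adjusted p = 0.0280, edgeR), and the call was lost without WT replicate 3 or without replicate 1 or 4 labelled FcγRIIB-/-. Dgat2, the enzyme of the last step of triglyceride synthesis, had -0.73 (adjusted p = 0.0384, edgeR), and the call was lost without WT replicate 1 or without replicate 2, 3 or 4 labelled FcγRIIB-/-. Without WT replicate 5, the highest at 70.3 CPM, its value was -0.45, over 1.5 times smaller. Ldah, a droplet hydrolase, had -0.18 (adjusted p = 0.0435, edgeR), and the call was lost without any 1 of WT replicates 1 to 5 or without replicate 1 or 4 labelled FcγRIIB-/-, and also with DESeq2's size factors, under either other filter and in DESeq2.

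**Figure D4:**
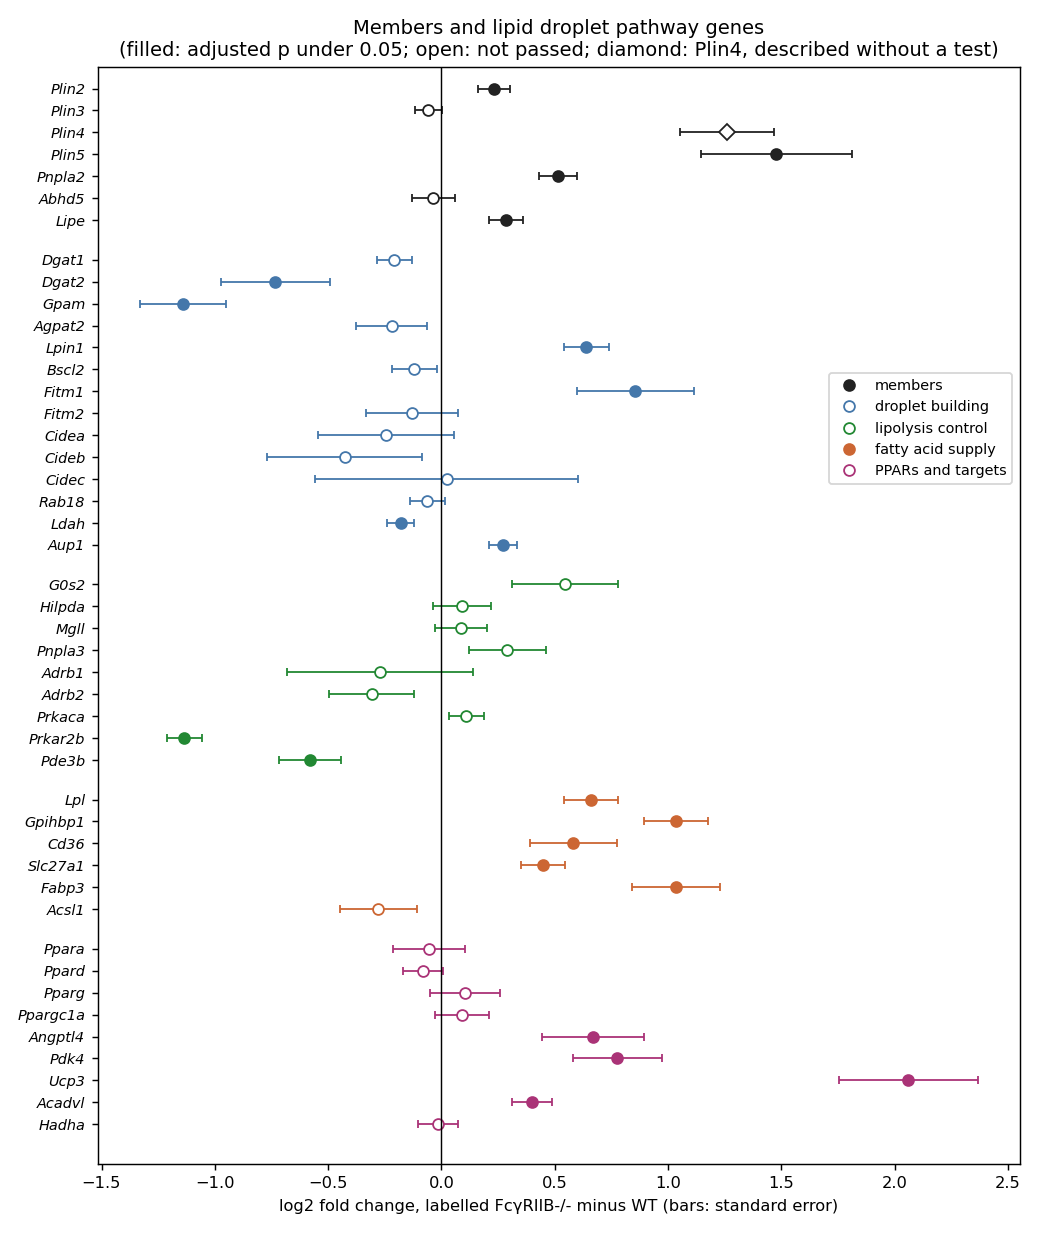
Log2 fold change (horizontal axis, libraries labelled FcγRIIB-/- minus WT, bars are standard errors) of the 7 members that passed the filter on low counts and of the 38 pathway genes tested, 1 row per gene and 1 colour per list. Filled points passed an adjusted p of 0.05, open circles did not, and the open diamond is Plin4, which is described without a test. Ucp3 is farthest to the right at 2.06 and Gpam and Prkar2b farthest to the left at -1.14.

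Regulators of lipolysis held 2 genes that fell and 0 that rose among 9 tested, a share of lower genes near the 19.3% of all genes tested. Prkar2b, a regulatory subunit of protein kinase A, fell by 1.14 on the log2 scale (SE 0.08, adjusted p = 4.48e-05, edgeR), from 45.0 ± 3.73 to 20.5 ± 1.02 CPM (SD). Pde3b, a phosphodiesterase that lowers cyclic AMP in fat cells, fell by 0.58 (SE 0.14, adjusted p = 0.00935, edgeR), from 19.1 to 12.7 CPM. G0s2, the inhibitor of ATGL, had a log2 fold change of 0.55 (SE 0.23) that did not pass in edgeR (adjusted p = 0.0953) and passed in DESeq2 (adjusted p = 0.0485) and in edgeR without WT replicate 2 (adjusted p = 0.0226). Mgll, which completes triglyceride breakdown, had 0.08 (adjusted p = 0.599, edgeR). Adrb3, the β-adrenergic receptor of fat cells, had 4 to 10 counts per library and was filtered.

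The PPAR genes themselves did not pass the test. The log2 fold change was -0.05 for Ppara, with a 95% interval from -0.405 to 0.298, and -0.08 for Ppard, with an interval from -0.274 to 0.111. It was 0.10 for Pparg, with an interval from -0.238 to 0.446, and 0.09 for their co-activator Ppargc1a, with an interval from -0.171 to 0.353. Of the 9 PPAR and target genes tested, 4 were higher and 0 lower, where 14% of all genes tested were higher and 19.3% lower. The 4 were all among the 5 target genes tested. This list too was chosen with earlier results of these data known, so nothing is read from its count. Ucp3, the uncoupling protein of muscle, rose by 2.06 on the log2 scale (SE 0.31, adjusted p = 0.00119, edgeR), from 7.96 ± 3.17 to 33.2 ± 10.6 CPM (SD). Pdk4, which restrains glucose oxidation, rose by 0.78 (SE 0.20, adjusted p = 0.0132, edgeR). Angptl4, an inhibitor of lipoprotein lipase, had 0.67 (adjusted p = 0.0425, edgeR), and the call was lost in 6 of the 9 comparisons that leave out 1 library, namely WT replicate 1, 3 or 5 or replicate 1, 2 or 3 labelled FcγRIIB-/-, and with scaling by library totals only (adjusted p = 0.0728, edgeR). Without replicate 2 labelled FcγRIIB-/- its value was 0.43, over 1.5 times smaller. Cpt1b was filtered at 2 to 13 counts per library, and the annotation places another gene, Gm44502, over its whole length on the same strand.

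Over the 4 lists, 38 of 40 genes were tested, 12 were higher and 5 lower, where 14% of all genes tested were higher and 19.3% lower, with a median log2 fold change of 0.05. Leaving out 1 library at a time gave 9 to 12 higher and 3 to 5 lower, with the 3 lower without WT replicate 1. Since the lists were chosen with earlier results of these data known, nothing is read from these counts.

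Markers of skeletal muscle moved in the same direction as Plin4 and Plin5. Of 12 muscle markers tested, 7 were higher and 0 lower, where 14% of all genes tested were higher and 19.3% lower. Their median log2 fold change was 0.93, and their summed level was 7995 to 18410 CPM in WT and 19680 to 34580 CPM in the libraries labelled FcγRIIB-/-. WT replicate 2, the lowest for Plin4 and Plin5, was also lowest for the muscle sum. Replicate 4 labelled FcγRIIB-/- did not follow this order. Its muscle sum was 33010 CPM, below only replicate 1 labelled FcγRIIB-/- at 34580 CPM, and it had the lowest Plin4 and Plin5 of its group. Per 10000 CPM of muscle markers, Plin4 was 13.3 to 17.6 in WT and 12.3 to 30.1 in the libraries labelled FcγRIIB-/-, with means of 14.7 ± 1.81 and 20.2 ± 8.02, and the groups overlapped. For Plin5 the values were 0.977 to 1.61 and 0.691 to 3.43, with means of 1.30 ± 0.255 and 2.16 ± 1.28, also overlapping. Plin2, Pnpla2 and Lipe had lower means per muscle sum in the libraries labelled FcγRIIB-/-, at 27.0, 29.4 and 9.21 against 44.2, 39.2 and 14.5 in WT, again with overlap.

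**Figure D5:**
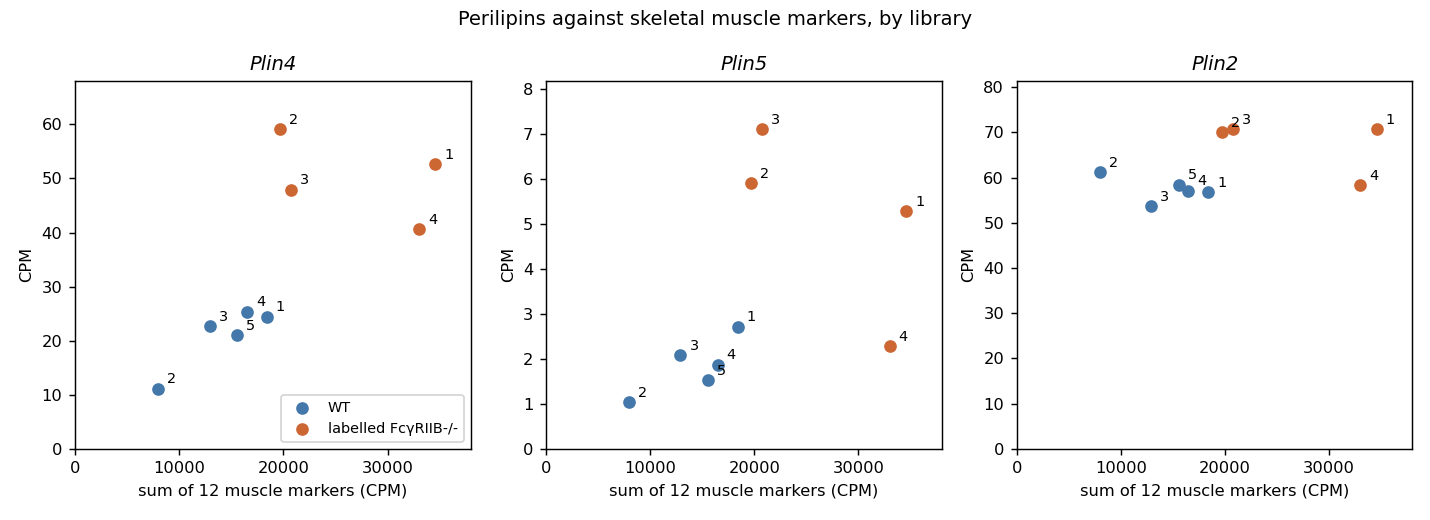
Level of Plin4, Plin5 and Plin2 in CPM (vertical axes, from 0) against the summed level of 12 skeletal muscle markers in CPM (horizontal axes), with 1 point per library numbered by replicate and coloured by group. WT replicate 2 is lowest on the muscle axis at 7995 CPM, and replicates 1 and 4 labelled FcγRIIB-/- lie farthest right, with replicate 4 below the rest of its group in all 3 panels.

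Markers of fat cells did not move as 1 group. Of 8, 4 were filtered at low counts (Lep, Retn, Adig and Ucp1), 2 were higher and 1 lower. Beside this and the marker counts that follow, 14% of all genes tested were higher and 19.3% lower. Adipoq, which encodes adiponectin, fell by 1.53 on the log2 scale (SE 0.28, adjusted p = 0.00307, edgeR), from 3.72 ± 1.26 to 1.29 ± 0.330 CPM (SD), the same direction as Plin1. Fabp4, which endothelial cells and macrophages also express, rose by 1.05 (SE 0.18, adjusted p = 0.00200, edgeR), from 68.2 ± 15.8 to 141.3 ± 24.3 CPM, and made up most of the marker sum of 52.0 to 93.3 CPM in WT and 121.0 to 175.2 CPM in the others. All 9 myeloid and all 7 erythroid markers were lower, with sums of 1127 to 3394 and 1615 to 1935 CPM in WT and 139 to 418 and 93.3 to 421 CPM in the libraries labelled FcγRIIB-/-. Macrophage markers were lower in 4 of 6, with sums of 270.5 to 398 and 193 to 241 CPM, keratins of oral epithelium were lower in 5 of 7 and higher in 1, with sums of 5417 to 19600 and 4331 to 5422 CPM, and bone markers were lower in 2 of 7, with sums of 29280 to 49370 and 34430 to 47500 CPM. The count of bone markers is near the share of all genes tested, so nothing is read from it. The part of these shifts in marker levels in the levels of the members was not tested.

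The genes whose log2 CPM ran most like that of Plin4 over the 9 libraries, out of 12745 candidates, were Cav3, the caveolin of muscle, with a Pearson r of 0.973, then Fxyd2, Mrpl1, Car14, Ndufb6 and Lpin1, the lowest with 0.965. All points share the split into 2 groups, which raises such values. With the group means removed, the leading genes were Dmd, which encodes dystrophin, with 0.959 and Slc25a15 with 0.958. Then came Dtna, which encodes a dystrophin-binding protein of muscle, with 0.954, Nde1, Fxyd2 and Itga7, the last with 0.928. Between the groups, Dmd, Slc25a15, Nde1 and Itga7 did not pass the test, with log2 fold changes of -0.17, 0.06, -0.07 and 0.26. Dtna and Fxyd2 were higher, with 0.21 and 0.88. Among the members tested, r with Plin4 after removal of the group means was 0.72 for Plin5, 0.48 for Lipe, 0.44 for Pnpla2, 0.10 for Abhd5, -0.08 for Plin2 and -0.34 for Plin3. These correlations describe 9 libraries that share their groups, with no test of r.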

How the data were processed

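Poly(A) RNA of whole mandibles was sequenced as directional single-end reads of 75 bases. Trimming by the authors used Trim Galore, mapping to mm10 used HISAT 02.1.0 and counting used featureCounts. The deposited values are raw counts. The annotation, the strand setting and the treatment of reads with several matches are not given in the sources used here. The table holds 1 more column of per-sample values that matches no sample, and it was not used.

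CPM is the count scaled to the TMM-normalized library size. Groups were compared in R 4.3.3 with the quasi-likelihood test of edgeR 4.0.16 on the whole table of 27179 genes, after filterByExpr with a minimum count of 10, without covariates and at a Benjamini-Hochberg adjusted p of 0.05. The study used DESeq2, and DESeq2 1.42.0 was an alternative here. Standard errors were derived from the size of the log2 fold change and the F statistic. The test was also run on simulated counts with 200 changed genes. Its outcome there is not given and is not used to back any call here. Correlations used log2 CPM with a prior count of 2. Lengths, transcripts and repeats came from GENCODE M21, and coordinates and promoters from RefSeq.

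The members and the gene lists were chosen with earlier results of these data known. Named genes are the members and, per list, the 3 largest changes past the threshold in each direction, those filtered, Ppara, Ppard, Pparg, Ppargc1a, G0s2, Mgll, Lpl and Cd36, and the 6 genes most like Plin4 by each measure. Fcgr2b and markers are named as checks. Total counts were 24158960 to 26787359 in WT and 21453880 to 28991631 in the libraries labelled FcγRIIB-/-. Intervals from summed counts cover counting error only. Among 16 pairs of libraries within groups, 0 were near-identical. Alternatives covered scaling, the filter, DESeq2, a replicate block, the prior count and leaving out each library.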

Additional observations from a re-analysis of the deposited data

Results flagged for a closer look

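Among 62 sets of values (1 gene in 1 group), 5 had a library far from the rest of its group by Dixon's criterion at 95%, where chance gives about 1 in 20. Plin2 in replicate 4 labelled FcγRIIB-/- was at 58.3 CPM, against 70.1 to 70.8 CPM in the other 3. Abhd5 in WT replicate 5 was at 65.3 CPM, against 50.8 to 54.3 CPM in the other 4. Aup1 in replicate 4 labelled FcγRIIB-/- was at 92.6 CPM, against 81.5 to 83.3 CPM. Pde3b in WT replicate 2 was at 25.0 CPM, against 16.7 to 18.5 CPM, and Fabp3 in the same library was at 17.5 CPM, against 31.0 to 35.8 CPM.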

How the results depend on the processing

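Plin4 kept its direction in all 15 alternative fits, with log2 fold changes of 1.12 to 1.36 when 1 library was left out. It was chosen for this difference and its groups do not overlap, so leaving out 1 library could not change its direction. These values are a description only. The number of other members higher, 4 in the comparison as reported, was 2 with scaling by library totals only and 2 with the replicate block, with Plin2 (adjusted p = 0.068) and Lipe (adjusted p = 0.0578) lost under the block in edgeR, as were Angptl4 (0.0759) and Ldah (0.141) among the pathway genes, and 3 to 4 when 1 library was left out. The number lower, 0 as reported, was 1 with no filter, 1 in DESeq2 and 0 to 1 when 1 library was left out, in each case Plin1, which then passed the filter. The number of pathway genes lower, 5 as reported, was 3 to 5 when 1 library was left out, with 3 without WT replicate 1. Small log2 fold changes changed sign for Abhd5 (0.029 under the replicate block, 0.057 without WT replicate 5, 0.005 without replicate 2 labelled FcγRIIB-/-), Ppara (0.024 without WT replicate 3, 0.046 without replicate 4 labelled FcγRIIB-/-), Pparg (-0.022) and Mgll (-0.008), both without replicate 4 labelled FcγRIIB-/-, and leaving out 1 library gave ranges of -0.111 to 0.057 for Abhd5, -0.145 to 0.046 for Ppara, -0.022 to 0.189 for Pparg and -0.008 to 0.187 for Mgll. The cause was not tested. Over single genes, 368 values kept direction and side of the threshold, 43 lost it, 2 gained it and 7 changed sign. A prior count of 0.5 moved none of 7 members' differences in log2 CPM beyond the spread between replicates.

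Of all genes called, 42.1% were higher as reported and 25.7% with scaling by library totals only, which moved the median log2 fold change of all genes to -0.07. Same-numbered libraries did not deviate together (r of 0.10, 0.03, -0.11 and -0.07), so no pairing by number was seen. Correlations over all genes cannot exclude a pairing. The replicate block gave 1594 genes higher and 2410 lower against 2289 and 3144. Low counts limit Plin1, with 1 to 16 per library, and Plin5, with 26 to 168.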
